A study of Homo sapiens with 8 samples.

Results

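H3K4me3 was compared between HCT8 cells that received *E. coli* membrane vesicles (MVs) and mock-treated HCT8 cells. The members were the H3K4me3 ChIP sequencing peak lists whose labels name MC1061 vesicles and the control, which are 2 samples of the 8 in the series. HCT8 is an established human ileocecal adenocarcinoma line with epithelial character. For the *E. coli* MV library the cells were kept for 5 h with vesicles shed by *E. coli* K-12 strain MC1061, and for the mock library they received the vesicle buffer, although the label calls these cells untreated. The methods give 1 anti-H3K4me3 antibody for the ChIP. They name library kits of Illumina and Diagenode as alternatives, without saying which library was made with which. The other samples hold *V. cholerae* vesicles, input DNA and libraries without an antibody. There was 1 library for each treatment, so no difference below has a replicate check, none was tested, and intervals cover counting error only.

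H3K4me3 is trimethylation of lysine 4 on histone H3, laid down by SET1 and MLL methyltransferase complexes. It marks nucleosomes around active and poised transcription start sites. SET1 complexes are brought to unmethylated CpG islands through CXXC zinc fingers, and readers of the mark such as TAF3 link it to the transcription machinery. Its width differs between genes, and the widest domains of a cell type often lie at its identity genes.

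The 2 libraries differed in depth and in how many tags fell into peaks. The *E. coli* MV library had 10528314 tags, of which 53.9% lay in 31466 called peaks, and the mock library had 3463875 tags, of which 38.6% lay in 23603 peaks. A single tag therefore weighed 0.9498 on the scale of the normalized tag count with *E. coli* MVs and 2.89 with mock, since that scale sets each library to 10000000 tags. The file headers give a tag threshold of 10 for *E. coli* MVs and 6 for mock, but the weakest listed peaks held 8 and 4 tags in those libraries. Because the share of tags in peaks was higher with *E. coli* MVs, a scaling to tags in peaks shifts each log2 ratio below by −0.48. Whether this gap belongs to the cells or to the immunoprecipitation cannot be told apart with 1 library for each treatment.

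Called peaks covered more of the genome with *E. coli* MVs, 50.1 Mb against 34.9 Mb with mock. Their mean density was nevertheless alike, 107.6 normalized tags per kb with *E. coli* MVs and 110.6 with mock. Median peak width was 1184 bp in the *E. coli* MV list and 1145 bp in the mock list. Peaks wider than 5000 bp numbered 503 with *E. coli* MVs and 206 with mock, and they held 7.79% and 4.34% of the peak tags in those libraries. Widths of 500 bp, the smallest the caller gives, made up 23.2% of peaks with *E. coli* MVs and 26.9% with mock.

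HCT8 identity was visible in both lists. All 15 epithelial markers, among them EPCAM, CDH1, CLDN4, CDX2, HNF4A and VIL1, had a peak at a start site with *E. coli* MVs, and 14 of 15 had one with mock. The gene without a mock peak was CDX1, with 15 tags in the *E. coli* MV library. Of 12 blood cell markers, 1 (CD14) had a peak in either library. Of 15 annotated markers of stroma, endothelium, muscle, neuron and liver, 2 had a peak with *E. coli* MVs, COL1A1 with 18 tags and RBFOX3 with 9 tags, and none had one with mock.

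Overlapping peaks (1 bp or more) formed a region, for which the tags of all its peaks in a library were summed. Of the *E. coli* MV peaks 61.5%, and of the mock peaks 85.3%, fell into 19261 shared regions, which held 95.7% and 97.9% of the peak tags of those libraries. The median normalized tag count of a shared region was 173.8 with *E. coli* MVs and 109.7 with mock. The median log2 ratio was 0.40, the middle 50% of regions lay between 0.04 and 0.75, and 76.6% of regions were higher with *E. coli* MVs. Of all shared regions 13.9% (2684) were at least 2-fold higher and 4.38% (843) at least 2-fold lower. With each library set to its tags in peaks the median log2 ratio was −0.09, so the direction of the typical shared region rests on the scaling.

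Shared regions were wider in the *E. coli* MV list, with medians of 1988 bp there and 1494 bp in the mock list. The median log2 ratio of width was 0.29, and 81.3% of regions were wider with *E. coli* MVs. Tags per kb of called peak were close, with a median log2 ratio of 0.03 and 51.7% of regions higher with *E. coli* MVs. By these medians over regions, on the scale of all tags, the extra tags went with a wider call rather than with a denser one. Pooled over regions, density was not compared. Scaled to tags in peaks, the median log2 ratio of tags per kb was −0.46. Kinds of region differed. At start sites of protein-coding genes the median log2 ratios of width and of tags per kb were both 0.24, and 74.5% were denser with *E. coli* MVs. In introns the median log2 ratio of tags per kb was −0.55, and 10.9% were denser.

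Split by mock width, regions differed in both ratios. Among the quartile of shared regions that were narrowest in mock, the median width was 885 bp in the *E. coli* MV list and 500 bp in the mock list, and the log2 ratio of tags per kb was −0.55. Among the widest quartile the widths were 3332 bp for *E. coli* MVs and 2966 bp for mock, and the log2 ratio of tags per kb was 0.28. The split uses mock width, which is also in both ratios, and the narrowest quartile sits at the caller's smallest width, so these values describe the split and show no property of narrow regions. The log2 ratio of the normalized tag count was 0.23 in the narrowest quartile and 0.41 in the widest.

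At gene starts the widening was seen on both sides. In 7404 promoters with 1 start site and 1 peak in each library, the peak reached 880 bp upstream of the start (median) for *E. coli* MVs and 739 bp for mock. Downstream, where the mark runs into the transcribed gene, it reached 1620 bp for *E. coli* MVs and 1435 bp for mock. The median gain was 130 bp upstream and 170 bp downstream. The peak extended farther with *E. coli* MVs at 76.2% of promoters upstream and at 79.0% downstream, and the downstream gain was the larger of both at 54.6%.

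The gain was smaller at more heavily marked promoters. In the lowest quartile by level it was 149 bp upstream and 204 bp downstream, and in the highest quartile 118 bp and 138 bp. The *E. coli* MV library was also the deeper one, and the part of depth in these gains was not tested.

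**Figure D1:**
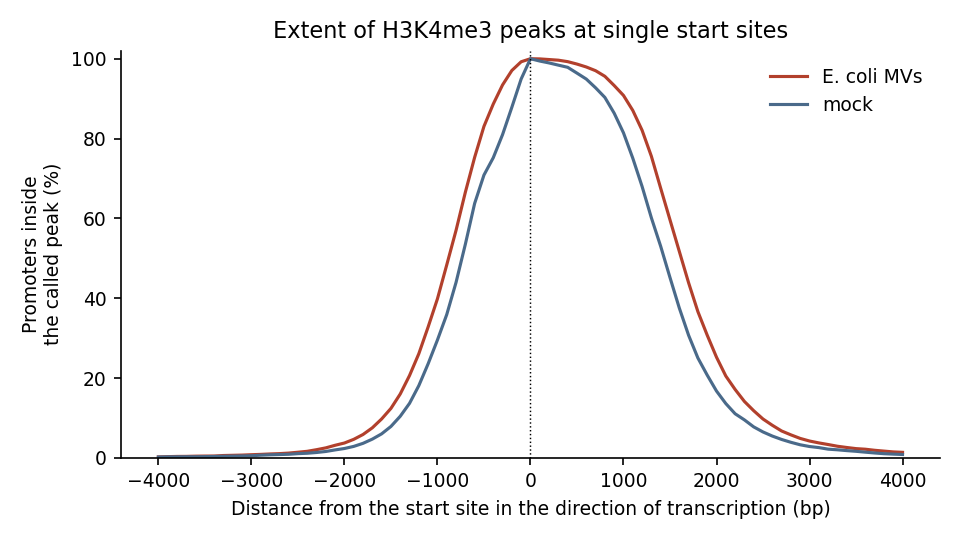
Percent of 7404 promoters (y axis) whose called peak covered a position at the given distance in bp from the start site (x axis, positive in the direction of transcription), for *E. coli* MVs and mock. At 1000 bp upstream 39.8% of promoters were covered with *E. coli* MVs and 29.5% with mock, and at 1000 bp downstream 90.8% and 81.4% in the same order.

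Some neighbouring mock peaks formed a single *E. coli* MV peak. This was so in 779 shared regions, against 71 regions where several *E. coli* MV peaks met 1 mock peak, while 18404 regions (95.6%) held 1 peak of each library. The 779 regions had a median log2 ratio of 0.59 in normalized tag count and 0.56 in width. Joining was a result of peak calling in libraries of unlike depth, and the part of depth in it was not tested.

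The most extended case was the HOXB cluster at chr17:46643301-46725714 (hg19), which holds the start sites of HOXB3 to HOXB9. HOX genes encode homeodomain transcription factors that set position along the body axis. The cluster carried 1 peak of 82413 bp with *E. coli* MVs and 6 peaks with 76719 bp in all with mock. Its normalized tag count was 9731 with *E. coli* MVs and 7284 with mock, a log2 ratio of 0.42, which is below the median of all genes (0.52). At this cluster the lists thus differed in how peaks were joined more than in tags, and the part of depth in the joining was not tested.

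Other joined domains lay at single genes. FAT1, an atypical cadherin, had 1 peak of 16732 bp with *E. coli* MVs against 5 mock peaks with 11703 bp, and a log2 ratio of 0.45. At RNF43, a ubiquitin ligase that restrains Wnt receptors, 1 *E. coli* MV peak met 5 mock peaks, with a log2 ratio of −0.11. ZBTB7A, a transcriptional repressor, and EPHB3, an ephrin receptor of the crypt, each had 1 peak against 4 mock peaks. Unlike RNF43, these 2 genes had more tags over the whole domain, 900 with *E. coli* MVs against 335 with mock at ZBTB7A and 747 against 358 at EPHB3.

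The log2 ratio of shared regions spanned more across base composition than across width. From the lowest to the highest quartile by GC content of the mock peak, the median log2 ratios were −0.12, 0.23, 0.49 and 0.86. In the lowest quartile, with GC content up to 43.4%, the median normalized tag count was 36.1 with *E. coli* MVs and 37.5 with mock, and 42.7% of regions were higher with *E. coli* MVs. In the highest quartile, from 58.2% GC, the levels were 259.3 for *E. coli* MVs and 135.7 for mock, and 96.6% of regions were higher. At least 2-fold higher were 301 regions of the lowest quartile and 1747 of the highest, out of 4816 and 4815. At least 2-fold lower were 571 and 18 regions of the same quartiles.

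This order held at every level of the mark. Within the quartile of regions with the highest mean level the median log2 ratio was 0.08 at the lowest GC content and 0.74 at the highest, and within the quartile with the lowest level it was −0.31 and 0.45. Setting each library to its tags in peaks moves all of these by the same amount and leaves their spread as it is. Whether the cells or the libraries gave this order cannot be told apart with 1 library for each treatment.

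**Figure D2:**
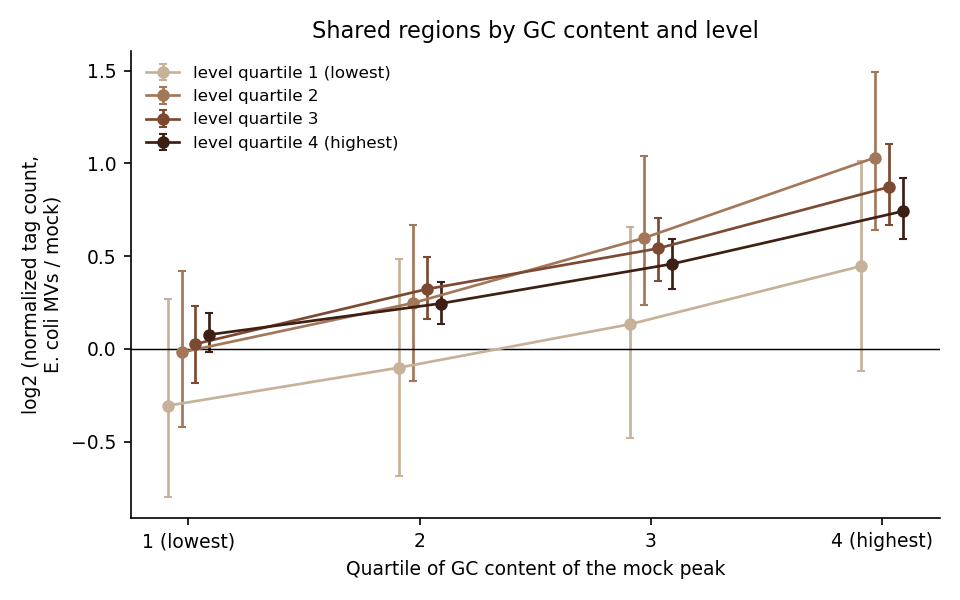
Median log2 ratio of normalized tag count, *E. coli* MVs over mock (y axis), in shared regions split by quartile of GC content of the mock peak (x axis) and by quartile of mean level (lines). Bars span the middle 50% of regions. In the highest level quartile the medians ran from 0.08 at the lowest GC content to 0.74 at the highest.

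Genomic classes were set apart along the same axis. Start sites of protein-coding genes made up 11571 shared regions (60.1%), with median normalized tag counts of 380.9 with *E. coli* MVs and 251.2 with mock and a median log2 ratio of 0.52. Start sites of other genes (1160 regions) had a median of 0.37. Intronic regions (3728) had a median of −0.06 and intergenic regions (2010) a median of −0.02. Median GC content was 54.9% at protein-coding start sites, 41.2% in introns and 42.9% between genes.

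Distal regions were also weaker than promoters, with medians of 33.2 in introns with *E. coli* MVs and 31.8 with mock. In the second quartile by level, protein-coding start sites had a median log2 ratio of 0.78, intergenic regions 0.20 and introns 0.09. The lowest quartile gave 0.18, −0.24 and −0.19 in the same order. The next quartile above the second gave 0.65, 0.38 and 0.16, with only 69 intergenic and 89 intronic regions. Median GC content of these classes in the second quartile was 59.2%, 44.4% and 41.1%. Chromosomes followed suit, with the highest medians on 19 (0.58), 16 (0.56) and 22 (0.56) and the lowest on 13 and 4 (0.27 each).

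Regions found in 1 library were narrow and weak. There were 12127 regions with *E. coli* MVs only, which took 38.5% of that library's peaks but 4.31% of its peak tags. There were 3480 with mock only, which took 14.7% of the mock peaks and 2.09% of the peak tags. Among peaks at least 8-fold over input the counts were 7423 with *E. coli* MVs only and 5614 with mock only. That cut kept 21933 *E. coli* MV peaks and 20615 mock peaks. The mock-only count rose from 3480 because mock peaks whose *E. coli* MV partner fell below the cut became mock only. The closer counts are therefore no measure of balance between the libraries. Median normalized tag counts were 14.2 in the *E. coli* MV set and 20.2 in the mock set, where the weakest listed peaks had 7.6 and 11.5.

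Many regions with *E. coli* MVs only held few tags once scaled to the depth of mock. The expected number was under the header's threshold of 6 tags in 64.1% (7772) of them and under the 4 tags of the weakest listed mock peak in 34.2% (4146). No library was thinned, and the part of depth in these regions was not tested. The median GC content was 45.2% in the *E. coli* MV set and 41.1% in the mock set.

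Both sets lay mostly away from genes' starts. Introns held 48.0% of regions with *E. coli* MVs only and 55.5% of those with mock only, and protein-coding start sites held 1590 (13.1%) and 254 (7.30%) of these sets. Within 5000 bp of a shared region lay 21.4% of the *E. coli* MV set and 24.8% of the mock set.

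A few strong regions stood out in each set. A normalized tag count of at least 100 was reached by 37 regions with *E. coli* MVs only, 25 of them at a protein-coding start site, and by 7 regions with mock only, 1 of them at such a site. Median GC content was 63.7% in the 37 and 39.2% in the 7.

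The strongest region with *E. coli* MVs only, with 531 tags over 3325 bp on chromosome 8, covered the start sites of PLAG1, a zinc finger transcription factor, and CHCHD7. At mock depth 174.7 tags would be expected, and the mock list had no peak there. Further ones lay at CDC25B, a phosphatase that activates CDK1, and CENPB, a centromere protein (247 tags, with 81.3 expected in mock), at SULF2, a heparan sulfate sulfatase (240 tags, 79.0 expected), and at NINJ2 (201 tags, 66.1 expected). FOXD1, a forkhead factor, had 153 tags, and SOCS3, an inhibitor of cytokine receptor signalling, had 135 tags. An intron on chromosome X, with 217 tags, ranked between SULF2 and NINJ2. These genes were chosen after their values were seen.

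The strongest mock-only region lay at GALK2 on chr15:49461705-49463987 (hg19) with 214 tags, where 650 tags would be expected at the depth of the *E. coli* MV library and no peak was listed. The second lay in an intron on chromosome 4 with 106 mock tags, against 322.2 expected. Both were only 4.7-fold and 4.39-fold over input in the mock list, next to the 4-fold the caller required. The header of the *E. coli* MV list counts 572 candidate peaks removed because of the input, and that of the mock list 41, so absence from a list does not mean absence of tags. The mock list also counts 16 candidates removed as too clonal, the *E. coli* MV list 1, and the positions of removed candidates are not analysed here.

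Open chromatin, measured by FAIRE (isolation of DNA free of nucleosomes) in cells of the same treatments, was compared between the sets. A FAIRE peak of *E. coli* MV cells overlapped 73.9% of shared regions, 37.9% of regions with *E. coli* MVs only and 19.5% of those with mock only. A FAIRE peak of mock cells overlapped 28.7%, 11.3% and 7.01% of the same sets. Shared regions were wider and more often promoters, and within introns the *E. coli* MV FAIRE peaks overlapped 34.3% of shared regions, 29.0% of regions with *E. coli* MVs only and 14.5% of those with mock only. The FAIRE libraries were not compared between treatments.

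Genes were given the summed normalized tag count of all peaks within 1000 bp of any annotated start site. Of 20089 protein-coding genes, 12907 had a peak with *E. coli* MVs and 12140 with mock. Both libraries had one at 12086 genes, 821 had a peak with *E. coli* MVs only and 54 with mock only. Genes with both had a median level of 454 for *E. coli* MVs and 309 for mock, the median log2 ratio was 0.52, and 95.9% of genes were higher with *E. coli* MVs. After scaling to tags in peaks the median was 0.03 and 53.5% were higher.

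Counting error separates most of these genes from a ratio of 1 on the scale of all tags. The interval lay above 0 on the log2 scale in 74.7% (9034) of genes and below 0 in 0.29% (35). At least 2-fold higher were 14.9% (1795) of genes and at least 2-fold lower 0.141% (17). Scaled to tags in peaks these shares were 4.32% and 0.472%, and for tags per kb 2.02% and 0.314%. The shares by all tags are the background for every gene group below, whose counts are on the same scale. They are shares of 1 library against another and would include any difference in immunoprecipitation.

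Genes were ordered by GC content of their peaks as regions were. Split by GC content of the mock peaks over whole joined regions, the medians were 0.23, 0.40, 0.60 and 0.93 from the lowest to the highest quartile. At least 2-fold higher were 1.98% of genes in the lowest quartile and 42.3% in the highest. The highest quartile had fewer tags at the outset, with medians of 319.1 with *E. coli* MVs and 161.7 with mock, against 563.2 and 470.6 in the lowest quartile. The number of CpG in the 300 bases around the start set genes apart less, with medians of 0.41, 0.42, 0.52 and 0.70 from the lowest to the highest quartile.

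The upstream sequences below are examples from both ends of the ranking and do not all follow that order. Each is the 200 bases before the annotated start from the GRCh37 reference, the build of the files, 5′ to 3′ on the gene's strand and inside a called peak of both libraries, with CpG dinucleotides in capitals. CXXC5 is among the 10 highest ratios over joined regions. RBM15B and DHRS11 are among the 10 highest over the start-site window, with log2 ratios of 3.71 and 2.51, but had 0.96 and 0.66 over joined regions. DNMBP, MTPAP and SMIM10L1 are among the 10 lowest over the start-site window.
CXXC5: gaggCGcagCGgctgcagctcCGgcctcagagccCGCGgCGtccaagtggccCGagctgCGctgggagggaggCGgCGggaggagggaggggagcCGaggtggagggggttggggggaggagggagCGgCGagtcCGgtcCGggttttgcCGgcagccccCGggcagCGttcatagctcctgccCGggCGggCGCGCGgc
RBM15B: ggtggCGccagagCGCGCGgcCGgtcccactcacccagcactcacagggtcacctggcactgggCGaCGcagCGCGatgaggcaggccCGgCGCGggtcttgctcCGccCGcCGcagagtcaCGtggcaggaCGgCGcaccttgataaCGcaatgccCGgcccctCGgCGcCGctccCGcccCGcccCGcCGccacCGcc
DHRS11: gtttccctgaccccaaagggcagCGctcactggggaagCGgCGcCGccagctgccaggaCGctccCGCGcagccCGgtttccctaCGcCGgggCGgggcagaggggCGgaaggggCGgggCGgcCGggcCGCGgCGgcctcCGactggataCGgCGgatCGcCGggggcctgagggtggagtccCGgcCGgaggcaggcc
DNMBP: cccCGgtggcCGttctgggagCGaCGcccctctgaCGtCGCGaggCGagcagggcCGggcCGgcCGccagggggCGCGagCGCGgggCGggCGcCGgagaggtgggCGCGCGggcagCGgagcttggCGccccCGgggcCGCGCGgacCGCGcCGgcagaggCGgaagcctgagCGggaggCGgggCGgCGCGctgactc
MTPAP: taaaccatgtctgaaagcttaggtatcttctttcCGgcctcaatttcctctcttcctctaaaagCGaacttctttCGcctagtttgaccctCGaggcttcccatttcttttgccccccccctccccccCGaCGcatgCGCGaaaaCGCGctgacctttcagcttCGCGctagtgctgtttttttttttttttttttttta
SMIM10L1: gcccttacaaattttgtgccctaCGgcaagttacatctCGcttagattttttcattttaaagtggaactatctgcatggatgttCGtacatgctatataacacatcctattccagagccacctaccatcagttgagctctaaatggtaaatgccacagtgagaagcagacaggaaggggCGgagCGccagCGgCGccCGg

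CXXC5 (chr5:139027734-139027933, plus strand) holds 23 CpG. RBM15B (chr3:51428516-51428715, plus strand) holds 28 and DHRS11 (chr17:34948109-34948308, plus strand) 25. MTPAP (chr10:30638208-30638407, minus strand) holds 12 and SMIM10L1 (chr12:11323593-11323792, plus strand) 8, whereas DNMBP (chr10:101769705-101769904, minus strand) holds 36 and goes against the order. HOXB9, whose sequence is not shown, is among the highest over the start-site window (log2 ratio 2.98, and 0.42 over joined regions). Its upstream 200 bases hold 11 CpG, fewer than those of MTPAP, so HOXB9 goes against the order too. MAFK, also not shown and among the highest over joined regions, holds 27. MYO1C and TNFSF13, both near the top of a ranking, also go against the order, with 7 CpG each in the 300 bases around the start. The median was 23 CpG over all genes at least 2-fold higher on joined regions, 14 over genes lower and 19 over all genes with a peak in both libraries.

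Short motifs told less than composition. The letters GGGCGG of the GC box, on either strand of the 300 bases from 250 before to 50 after the start, were in 61.5% of all promoters and in 75.3% of those with peaks in both libraries. Genes with them had a median log2 ratio of 0.55 and genes without them 0.40, with median CpG numbers of 30 and 19. The AP-1 letters TGACTCA were in 3.57% of promoters, and the medians were 0.53 with them and 0.52 without. The ETS letters CCGGAAG were in 14.1% of promoters and went with a lower median, 0.41 against 0.54, at nearly equal CpG numbers (27 and 28). A match describes letters only.

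The ranking by the start-site window was led by genes where an *E. coli* MV peak overlapped mock peaks outside the window. The 10 highest in the upper 50% by level were ENSG00000271698, TNFSF13, RBM15B, EHBP1L1, HOXB9, IMPDH2, CD151, ZFTRAF1, ANKRD13D and DHRS11, with log2 ratios between 2.51 and 5.28. TNFSF13, the cytokine APRIL, had 727 with *E. coli* MVs from a peak of 6108 bp and 40.4 with mock. Over all peaks joined with it, which include a neighbouring mock peak, mock had 389.7 and the log2 ratio was 0.90 in place of 4.17.

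The others behaved likewise. Over joined regions RBM15B, an RNA-binding protein of the m6A writer complex, had a log2 ratio of 0.96, IMPDH2, which makes guanine nucleotides, 0.53, and CD151, a tetraspanin, 0.93. HOXB9 had 0.42 in place of 2.98. All 10 remained higher with *E. coli* MVs, between 0.42 and 1.21. Of the 5 genes ranked first by tags among those that lacked a mock peak in the window, 3 were of the same kind. FAM83E, RAB34 and DQX1 had mock tags once joined peaks were counted, with log2 ratios of 0.35, 0.39 and 0.70, and CHCHD7 and PLAG1 had none.

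Over joined regions 12132 genes had tags in both libraries, with a median log2 ratio of 0.51. At least 2-fold higher were 1700 (14.01%) and at least 2-fold lower 15 (0.124%), so joining changed single genes more than the whole. It moved 101 genes by more than 0.5 on the log2 scale. The genes named next were ranked on this value after the first ranking had been seen.

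The 10 highest in the upper 50% by level had GC contents of the mock peaks from 64.3% to 74.2%. MYO1C, an unconventional myosin, had 595 with *E. coli* MVs and 188 with mock, a log2 ratio of 1.66 (counting interval 1.29 to 2.06). RXRA, the retinoid X receptor, had 704 with *E. coli* MVs and 237 with mock (1.57, 1.24 to 1.92). MAFK, a small Maf partner of NRF2, had 597 with *E. coli* MVs and 205 with mock (1.54, 1.19 to 1.92). In all 3 the interval lay above 1 on the scale of all tags. They were picked as the highest by this same ratio, so the intervals are no test of a 2-fold difference.

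MIDN, RAI1, GPC1, RHBDF1, PLEKHG5, ZBTB7A and CXXC5 followed with log2 ratios between 1.37 and 1.52. GPC1 is a heparan sulfate proteoglycan, RHBDF1 an inactive rhomboid that handles EGF ligand release, and CXXC5 a CXXC zinc finger protein that reads unmethylated CpG. RXRA differed in width and not in density, with 8709 bp called with *E. coli* MVs, 2929 bp with mock and a log2 ratio of tags per kb of 0.00. MIDN differed from it, with 5787 bp in the *E. coli* MV list, 3859 bp in the mock list and 0.93 in tags per kb.

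On the scale of all tags, the 10 lowest regions among genes of the same level were lower by less than the highest were higher. A scaling to tags in peaks shifts both ends by −0.48, so the size of this difference rests on the scaling. So scaled, GALK2 was at −0.96 and MYSM1 at −0.84. GALK2, a galactose-family sugar kinase, had 962 with *E. coli* MVs and 1342 with mock, a log2 ratio of −0.48 (counting interval −0.64 to −0.32). Its second mock peak is the region without an *E. coli* MV peak described above, and it held 214 of the gene's 465 mock tags. The ratio therefore rests on a mock peak only 4.7-fold over input, and the interval does not cover a peak missing from a list. SMIM10L1, PRH1, TAS2R14 and ENSG00000275778 shared 1 region with 633 with *E. coli* MVs and 834 with mock (−0.40). MYSM1, a histone H2A deubiquitinase, had 473 with *E. coli* MVs and 606 with mock (−0.36). MTPAP, the mitochondrial poly(A) polymerase, had 616 with *E. coli* MVs and 765 with mock (−0.31).

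KIFC1, a minus-end kinesin, and SCFD1, a vesicle fusion factor, had log2 ratios of −0.25 each, and their intervals ended just below 0. PFDN5, IPO9, METAP1D and ZNF322 lay between −0.24 and −0.22 with intervals that include 0. GC contents of the mock peaks of all 10 regions were between 42.8% and 49.5%. DNMBP, a Cdc42 exchange factor, was lowest by the start-site window at −0.55 (599 with *E. coli* MVs, 875 with mock), and at −0.14 over joined regions (794 and 875 in the same order).

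Peaks with mock and none with *E. coli* MVs were few and weak at genes. FN1, which encodes fibronectin, had 48 mock tags over 2692 bp. Its mock peak overlapped an *E. coli* MV peak of 108 tags that lay outside the window, and over both the log2 ratio was −0.43 with a counting interval from −0.94 to 0.09. LTK had 19 mock tags and likewise overlapped an *E. coli* MV peak, of 77 tags. WDFY4 had 21 mock tags, and GRAMD1B and GUCA2A 14 each.

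Among the most heavily marked genes of mock cells, NFIA, a nuclear factor I gene, had 3268 with *E. coli* MVs and 2737 with mock, a log2 ratio of 0.26 (counting interval 0.15 to 0.36). This was below the median of all genes.

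Gene groups were read against the background of all genes, 74.7% above mock by more than counting error and 14.9% at least 2-fold higher, with a median log2 ratio of 0.52. The group farthest above it was that of developmental transcription factors. The group farthest below it was that of splicing factors. Over joined regions some counts at 2-fold were smaller: epithelial genes had 1 such gene, and the unfolded protein and heat shock lists had none.

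Developmental transcription factors are often silenced by Polycomb outside their own tissues. Of 38 such genes 16 had a peak with *E. coli* MVs and 12 with mock. Of the 12 with both, 11 exceeded mock beyond counting error and 5 at least 2-fold higher, with a median of 0.94. Those with a peak with *E. coli* MVs only included PAX6 with 22 tags and LHX1 and NEUROG2 with 53 tags each. Scaled to tags in peaks the median was 0.46, against 0.03 for all genes, and the median GC content of the peaks was 60.3%.

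ZIC2, a neural zinc finger gene, had 503 with *E. coli* MVs and 77.9 with mock, a log2 ratio of 2.69 that was 1.69 over joined regions. FOXC1, a forkhead gene, had 437 with *E. coli* MVs and 153 with mock (1.51, and 1.22 over joined regions). FOXA2 (1.03), FOXF1 (1.09) and EN2 (1.25) were the other members past 2-fold. GATA6 and TBX3, which were heavily marked in mock, had log2 ratios of 0.50 and 0.45, and EOMES had 5 mock tags and 0.24.

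SR and hnRNP splicing factors, which are broadly expressed, had peaks for all 18 members in both libraries. Of them 10 exceeded mock beyond counting error, none was 2-fold higher and the median was 0.20. SRSF9 (0.57) and HNRNPM (0.55) were highest, and HNRNPA1 had 1182 with *E. coli* MVs and 1273 with mock (−0.11) and HNRNPC 796 with *E. coli* MVs and 840 with mock (−0.08), both with intervals that include 0. Median GC content was 50.6%. Mitosis genes came next, with 11 of 16 above mock, none 2-fold higher, a median of 0.35 and a median GC content of 47.8%. BIRC5, the survivin gene, was at 0.80, CENPA at 0.67, and BUB1B and KIF20A at 0.14 each.

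Epithelial genes were near the background. Of 14 with peaks in both libraries 13 were above mock and 2 were 2-fold higher, with a median of 0.60. VIL1, the microvillus protein villin, had 225 with *E. coli* MVs and 101 with mock (1.16) at nearly the same width. KRT19, a keratin, had 561 with *E. coli* MVs and 274 with mock (1.03), but the called width was 7698 bp in the *E. coli* MV list and 2437 bp in the mock list, so that tags per kb were lower by −0.63 on the log2 scale, and over joined regions the log2 ratio was 0.68. CLDN4 and CLDN7, tight junction claudins, were lowest at 0.37 and 0.42.

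Stress pathways had medians on both sides of the 0.52 of all genes. Of 20 genes of the unfolded protein and integrated stress response 17 were above mock and 1 was 2-fold higher, with a median of 0.44. That gene, DDIT3, which encodes CHOP, had 725 with *E. coli* MVs and 266 with mock (1.45), and 0.75 over joined regions. TRIB3, a pseudokinase induced by ATF4, had 334 with *E. coli* MVs and 167 with mock (1.00), just short of 2-fold. ATF6 (0.04) and the chaperone gene HSPA5 (0.16) had intervals that include 0.

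Of 13 heat shock genes 12 were above mock and 1 was 2-fold higher, with a median of 0.38. HSPA1B, an inducible HSP70 gene whose near-identical copy HSPA1A can share reads with it, was at 1.15 and at 0.71 over joined regions. BAG3, its co-chaperone, was at 0.69, and HSPH1 (0.19) and HSP90AA1 (0.30) were lowest. Of 17 oxidative and metal stress genes 14 were above mock, none 2-fold higher, with a median of 0.58. GCLM, a subunit of the glutathione-making ligase, was at 0.98 and HMOX1, haem oxygenase, at 0.91, while the partner subunit GCLC was at 0.19 and NFE2L2, which encodes NRF2, at 0.20.

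Metabolic groups were close to the median of all genes. Of 17 genes of cholesterol synthesis and uptake 16 were above mock and 3 were 2-fold higher, with a median of 0.58. INSIG1, which holds back SREBP processing, had 544 with *E. coli* MVs and 268 with mock (1.02), and the regulator SREBF1 was at 1.01. FDFT1, squalene synthase, was at 0.34.

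Of 19 genes of glycolysis and hypoxia 17 were above mock and 2 were 2-fold higher, with a median of 0.62. PFKL, a phosphofructokinase, was at 1.05 and ANKRD37 at 1.01, and PGK1 (0.10) and ENO1 (0.24) were lowest. CA9, a hypoxia-induced carbonic anhydrase, had 20 tags with *E. coli* MVs and no mock peak. Of 20 p53 targets 18 were above mock and 1 was 2-fold higher, with a median of 0.53. PLK3 (1.05) and the death gene BBC3 (0.99) were highest, and XPC, a DNA damage sensor, had 744 with *E. coli* MVs and 759 with mock (−0.03).

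Genes for vesicle uptake and degradation spread widely. Of 15 endocytosis and lipid raft genes with both peaks 14 were above mock and 1 was 2-fold higher, with a median of 0.43. CAV1, the caveolin of caveolae, had 189 with *E. coli* MVs and 49.1 with mock (1.95, counting interval 1.23 to 2.75), and its partner CAV2 had 29 tags with *E. coli* MVs and no mock peak. DNM1, a dynamin, was at 0.96, whereas RAB5A, the GTPase of early endosomes, was at 0.25 and the clathrin light chain CLTA at 0.26. Of 16 autophagy and lysosome genes 12 were above mock and 4 were 2-fold higher, with a median of 0.53. SQSTM1, the cargo receptor p62, had 937 with *E. coli* MVs and 416 with mock (1.17), and the lysosomal channel gene MCOLN1 was at 1.09. GABARAPL1 (−0.26) and ATG5 (−0.03) had intervals that include 0.

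Antigen presentation and matrix genes held some of the larger single ratios on few mock tags. Of 12 MHC class I pathway genes 11 were above mock and 2 were 2-fold higher, with a median of 0.47. TAP2, a subunit of the peptide transporter, had 241 tags with *E. coli* MVs and 29 with mock (1.45), HLA-B had 115 and 14 in the same libraries (1.43), and HLA-C (0.35) and CANX (0.36) were lowest. The classical HLA genes resemble each other, and reads may be split among them. Of 7 mesenchymal and matrix genes with both peaks 6 were above mock and 1 was 2-fold higher, with a median of 0.61. PLAU, the urokinase gene, had 211 tags with *E. coli* MVs and 18 with mock (1.95), and ITGA5 was at 0.81. VIM, which encodes vimentin, had 14 tags with *E. coli* MVs only.

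Of the genes that the study names for opposite regulation, RND3, an atypical small GTPase that loosens the actin skeleton, had 1244 with *E. coli* MVs and 1140 with mock (0.13, counting interval −0.04 to 0.29). SOCS2, a suppressor of cytokine signalling, had 1230 with *E. coli* MVs and 716 with mock (0.78). The study chose these genes for their regulation in cells of the same treatments, so they are no independent sample of genes.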

How the data were processed

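The H3K4me3 peak lists of *E. coli* MVs and mock were used, and the FAIRE lists of both treatments for peak positions only. Per the submitters' processing notes (Bowtie 1.1.2, SAMtools 1.3.1, HOMER 4.7.2) reads were aligned to hg19, while the methods name Bowtie 2 and both MACS and HOMER. Per the file headers the authors called peaks in each library in histone mode, at 4-fold over input and a Poisson p of 1.00e-04, at most 1 tag per bp, and 1000 bp between peaks. The deposited normalized tag count is a signal per 10000000 tags, the deposited fold is a ratio to input, used as an alternative threshold, and the deposited tag counts were not needed: tags were recovered from the signal by rounding, with deviations of at most 0.0526. The lists print that signal to a fixed decimal, and no count test was run.

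Peaks sharing 1 bp were joined. Gene annotation was GENCODE on GRCh37. Intervals of ratios and shares are exact (Clopper-Pearson, 95%) and cover counting error only, since PCR copies are not independent. Named genes were, in the upper 50% by level, the 10 highest and 10 lowest ratios, the 5 with most tags and no peak in the other library, the 5 with most mock tags, the 5 with the largest gain in width, the 2 highest and 2 lowest of each list, and 4 genes named by the study; some of these are not reported here. Members and lists were chosen with earlier results of these data known. Values over joined regions were added after the data were seen. Joining and intervals were tested on simulated data. Python 3.11.15, pandas 2.3.3 and SciPy 1.17.1 were used.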

Additional observations from a re-analysis of the deposited data

How the results depend on the processing

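No paired analysis was possible because the labels give 1 library to either treatment. Scaled to tags in all called peaks, the median log2 ratio of shared regions was −0.087 and that of tags per kb −0.46, with 43.7% of regions higher, and scaled to tags in shared regions these were −0.053, −0.42 and 46.1%. For genes the same scalings gave medians of 0.034 and 0.067, with 4.32% and 4.67% at least 2-fold higher and 0.472% and 0.439% at least 2-fold lower. Directions of typical regions therefore depend on the scaling. With peaks at least 8-fold over input, shared regions had medians of 0.46 (tags), 0.25 (width) and 0.16 (tags per kb), with 84.7% higher, 7423 regions were found with *E. coli* MVs only and 5614 with mock only, and 13.997% of genes were at least 2-fold higher. With peaks at or above a normalized tag count of 11.5 these were 0.42, 0.30, 0.046 and 78.9%, and 7981 regions were found with *E. coli* MVs only. Overlap of 50% of the shorter peak gave medians of 0.41 (tags) and 0.040 (tags per kb) and 78.0% higher, and regions of 1 peak in each library a width median of 0.28. A gene value of tags per kb gave a median of 0.24, with 2.02% at least 2-fold higher and 0.314% lower, joined regions, an alternative chosen after seeing the data, gave 14.01% higher, and a window of 2500 bp 0.227% lower. Of 89 named genes 27 changed sign under either scaling, 14 per kb and 1 with a window of 2500 bp; KRT19 was at −0.63 per kb. The weakest listed mock peak held 4 tags, and the part of depth in weak regions was not tested.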
